A study of Mus musculus with 18 samples.

Results

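The genes described here are 9 markers of cortical layer identity: Cux1, Cux2, Rorb, Fezf2, Bcl11b, Tle4, Foxp2, Tbr1 and Rasgrf2. They were taken by gene symbol from the 55487 genes of a count table made from the frontal cortex of mice. All 9 had counts and all 9 were among the 17414 genes tested. Bulk RNA was sequenced from 18 mice aged 9 to 10 months, 6 of each genotype, with 3 females and 3 males in each. The APP/PS1 mice carried the transgenes of that line on a B6C3 background and 2 floxed alleles of the β-subunit of farnesyltransferase (FT), without Cre. The APP/PS1/FTnKO mice carried the same transgenes and floxed alleles together with a Cre driven by the CaMKIIα promoter, which deletes FT after birth in forebrain neurons and is meant to spare glia and other cells. The WT mice were, by the breeding scheme of the study, littermates with the floxed alleles and neither transgenes nor Cre, whereas the GEO design text names them C57BL/6J. By that scheme all 3 genotypes share the floxed alleles. No group with the FT deletion but without these transgenes is among these 18 mice, and the tissue holds all cell types of the frontal cortex.

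The mammalian neocortex is built of layers of excitatory neurons that differ in birth date, wiring and gene expression. Upper-layer neurons mostly connect cortical areas with each other, layer 4 receives thalamic input, and layers 5 and 6 send axons to subcortical targets such as the spinal cord, striatum and thalamus. Transcription factors such as Fezf2, Bcl11b and Tbr1 establish these identities during development, partly by repressing each other, and many stay expressed in the adult. Several of them are also used outside the cortex, so that their level in a dissected sample depends on the tissue included as well as on the layers.

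The deposited values were whole read counts. Total counts per mouse lay between 15925432 and 21030935, with similar ranges in WT (16452173 to 20602274), APP/PS1 (up to 20703587) and APP/PS1/FTnKO animals (from 16479413). Values are given as CPM, the share of each library's counts scaled to a common total, after normalization by the trimmed mean of M-values (TMM). The labels were checked on 3 genes. Fntb, which encodes the FT β-subunit, was at 7.84 to 14.7 CPM in APP/PS1/FTnKO mice, beside 14.1 to 32.2 CPM in WT and 14.2 to 32.1 CPM in APP/PS1 mice, so that the knockout range only just met the others. App and Prnp, whose sequences the transgenes carry, were at 1492 to 1613 and 658 to 768 CPM in WT and at 2117 to 3640 and 1841 to 2632 CPM in the transgenic mice. WT mouse 19622 stood apart from the other 17 mice. The cerebellar markers, a list of 16 genes that includes Cbln3, a gene of cerebellar granule cells, summed to 4857 CPM in this mouse and to 175 to 241 CPM in the other 17. Cbln3 itself was at 853 CPM in this mouse and at 0.0517 to 0.993 CPM in the others. The markers of excitatory neurons summed to 913 CPM in mouse 19622 and to 4526 to 8215 CPM in the others, and Emx1, a transcription factor of the dorsal telencephalon, had 0 counts. These values go against its tissue label, frontal cortex. Mouse 19622 was therefore set apart, as the study's own tests also left out 1 WT mouse, and all tests below were made on 17 mice. In those 17 mice, Slc17a7, the vesicular glutamate transporter of cortical excitatory neurons, was at 633 to 1389 CPM and Emx1 at 5.91 to 11.7 CPM.

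Levels of the 9 genes were compared with each other only after division by the summed exon length. Rasgrf2 was highest at 19.5 ± 1.83 CPM per kb (SD, n = 17), followed by Tbr1 at 17.96 ± 3.13, Bcl11b at 14.4 ± 1.76, Tle4 at 12.6 ± 1.61 and Cux2 at 11.7 ± 1.10 CPM per kb. Fezf2 at 6.89 ± 1.48, Cux1 at 4.95 ± 0.351, Rorb at 3.42 ± 0.335 and Foxp2 at 1.92 ± 0.424 CPM per kb were lower. The ranges of neighbours in this order overlapped, except that Cux1 lay above Rorb and Rorb above Foxp2 with no overlap. Rasgrf2 exceeded Tbr1 in 12 of 17 mice, and Cux2 exceeded Fezf2 in all 17. The genes also differed in how much they varied from mouse to mouse. The coefficient of variation over the 17 mice was 7.09% for Cux1, which varied least, and 22.1% for Foxp2, 21.4% for Fezf2 and 17.4% for Tbr1, the 3 that varied most. The counts behind the values were lowest for Fezf2, with 211 to 645 reads per mouse, and for Foxp2, with 242 to 845 reads.

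**Figure D1:**
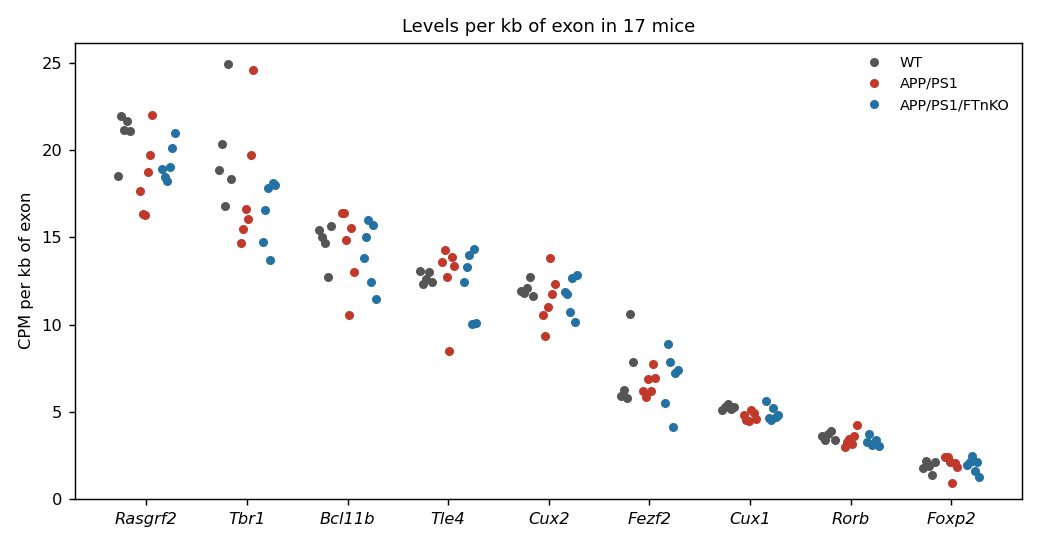
Levels of the 9 layer identity genes in CPM per kb of exon, ordered by their mean, with 1 point for each of 17 mice coloured by genotype. Rasgrf2 and Tbr1 are highest, Foxp2 is lowest at 1.92 CPM per kb, and the 3 genotypes overlap for every gene.

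The first genes are those of the upper layers. Cux1 and Cux2 encode homeodomain transcription factors that shape dendrites and synapses of layer 2 to 4 neurons. Cux1 lies on chromosome 5 (GRCm38, chr5:136248135-136567490, minus strand) and overlaps 4 annotated genes, 1 of them antisense. The Cux1 levels in the 5 WT mice were 102, 106, 109, 104 and 105 CPM. In APP/PS1 mice the lowest, median and highest Cux1 values were 89.0, 94.1 and 103 CPM, and in APP/PS1/FTnKO mice they were 90.9, 95.4 and 113 CPM. Only the highest APP/PS1 mouse reached into the narrow WT range, while the APP/PS1/FTnKO mice spread on both sides of it. The log2 fold change of Cux1 was -0.14 ± 0.055 (SE) in APP/PS1 against WT mice with an unadjusted p = 0.0174, and it did not pass the adjustment over all genes (edgeR quasi-likelihood test, FDR = 0.247). Cux2 lies on the same chromosome (chr5:121856366-122050102, minus strand) and overlaps 2 antisense genes. Its values in the 5 WT mice were 120.2, 119, 122, 128 and 117 CPM. In APP/PS1 mice Cux2 ranged from 94.0 to 139 CPM with a median of 115, and in APP/PS1/FTnKO mice from 102 to 129 CPM with a median of 119. The WT values lay inside the ranges of both transgenic groups, and the log2 fold changes of Cux2 were -0.064 ± 0.073 and -0.034 ± 0.073 against WT.

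Rasgrf2, the third gene of the upper layers, encodes a calcium-regulated exchange factor for Ras and Rac GTPases (chr13:91880400-92131656, minus strand). Its values in the 5 WT mice were 171, 203, 196, 200.2 and 195 CPM. The APP/PS1 mice ranged from 151 to 203 CPM with a median of 168, and the APP/PS1/FTnKO mice from 168 to 194 CPM with a median of 175. A single WT mouse, 18944, lay well below the other 4, and a single APP/PS1 mouse, 19744, lay at the top of its group. Rasgrf2 was lower by a log2 fold change of -0.17 ± 0.056 in APP/PS1 than in WT mice (edgeR, unadjusted p = 0.00823, FDR = 0.184), which did not pass the adjustment. The result depended on mouse 19744: without it the difference was -0.21 and passed at FDR = 0.0318. Over the other alternatives the FDR of this comparison stayed above 0.05. The difference shrank to -0.11 without WT mouse 19053 (edgeR, unadjusted p = 0.0597), to -0.11 with the RNA integrity number as a covariate (edgeR, unadjusted p = 0.0840) and to -0.00015 with mouse 19622 kept. Mouse 19622 itself was at 67.1 CPM of Rasgrf2, below all 17 other mice. In APP/PS1/FTnKO against APP/PS1 mice the difference of Rasgrf2 was 0.067 ± 0.053 (FDR = 0.685), with a 95% interval of the fold from 0.969 to 1.13.

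Rorb encodes a nuclear receptor needed for the barrels of layer 4 (chr19:18930605-19111196, minus strand). The 5 WT mice had 40.1, 37.7, 41.0, 43.3 and 37.5 CPM of Rorb. The APP/PS1 mice ranged from 32.8 to 46.7 CPM with a median of 37.1, and the APP/PS1/FTnKO mice from 33.5 to 41.2 CPM with a median of 35.6. All 3 groups overlapped. The log2 fold change of Rorb was -0.068 ± 0.075 in APP/PS1/FTnKO against APP/PS1 mice (FDR = 0.791) and -0.13 ± 0.079 against WT mice (edgeR, FDR = 0.335).

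The next genes mark layer 5. Fezf2 encodes a zinc finger transcription factor that specifies subcerebral projection neurons (chr14:12342094-12348189, minus strand). The Fezf2 values in the 5 WT mice were 17.98, 18.9, 17.6, 32.2 and 23.9 CPM. In APP/PS1 mice they ran from 17.8 to 23.6 CPM with a median of 19.9, and in APP/PS1/FTnKO mice from 12.6 to 27.1 CPM with a median of 22.3. Both the highest and the lowest Fezf2 values came from males, WT mouse 19718 and APP/PS1/FTnKO mouse 16974, and the APP/PS1 range lay inside both others. The 95% interval of the fold in APP/PS1/FTnKO against APP/PS1 mice, 0.812 to 1.33, was the widest of the 9 genes (edgeR, FDR = 0.941). Bcl11b, also known as Ctip2, encodes a zinc finger factor of corticospinal neurons and of striatal medium spiny neurons (chr12:107910403-108003602, minus strand). Its levels in the 5 WT mice were 125, 122, 119, 103 and 127 CPM. In APP/PS1 mice Bcl11b ranged from 85.7 to 133 CPM with a median of 123, and in APP/PS1/FTnKO mice from 93.0 to 129.7 CPM with a median of 117. The groups overlapped over most of their ranges, and the lowest value in each group came from a male. The log2 fold change of Bcl11b was -0.037 ± 0.089 in APP/PS1/FTnKO against APP/PS1 mice (edgeR, FDR = 0.917).

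The last genes mark layer 6. Tle4 encodes a Groucho-family corepressor (chr19:14448150-14598051, minus strand). The Tle4 values in the 5 WT mice were 74.5, 70.2, 71.9, 74.3 and 71.0 CPM. In APP/PS1 mice they ran from 48.5 to 81.3 CPM with a median of 76.8, and in APP/PS1/FTnKO mice from 57.1 to 81.8 CPM with a median of 73.4. The WT mice were close together, while males 16975 of the APP/PS1 group and 16974 and 19720 of the APP/PS1/FTnKO group lay at 48.5, 57.1 and 57.6 CPM and the remaining transgenic mice at 71.0 CPM or more. The genotype differences of Tle4 ran from -0.056 to -0.016 on the log2 scale (edgeR, FDR of 0.806 or more). Foxp2 encodes a forkhead factor of corticothalamic and striatal neurons (chr6:14901349-15441977, plus strand). The 5 WT mice had 29.3, 36.0, 30.7, 22.7 and 34.4 CPM of Foxp2. The APP/PS1 mice ranged from 15.0 to 39.7 CPM with a median of 33.9, and the APP/PS1/FTnKO mice from 20.4 to 40.4 CPM with a median of 33.2. The 3 groups had almost the same centre and wide tails on the low side, and the log2 fold changes were -0.017 ± 0.16, 0.0035 ± 0.17 and -0.013 ± 0.17 in the 3 comparisons.

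Tbr1 encodes a T-box factor that specifies corticothalamic neurons (chr2:61802930-61814114, plus strand). Its values in the 5 WT mice were 103, 112, 92.2, 137 and 101 CPM. The APP/PS1 mice ranged from 80.6 to 135 CPM with a median of 89.7, and the APP/PS1/FTnKO mice from 75.0 to 99.4 CPM with a median of 94.3. The APP/PS1/FTnKO group lacked the high values that WT mouse 19718 and APP/PS1 mouse 19744 showed, and 1 of the 5 WT mice lay inside its range. The log2 fold change of Tbr1 in APP/PS1/FTnKO against WT mice was -0.25 ± 0.12, the largest of the 27 genotype differences of these genes (edgeR, unadjusted p = 0.0483, FDR = 0.222), and it did not pass the adjustment. Tbr1 is also expressed in the olfactory bulb, which lies next to the frontal cortex. A list of 8 olfactory bulb markers, 7 of them tested and none at 0 counts in all 17 mice together, summed to 52.4 to 162 CPM in WT, 60.5 to 209 CPM in APP/PS1 and 25.8 to 111 CPM in APP/PS1/FTnKO mice. All 7 were lower in APP/PS1/FTnKO than in WT mice (median of -0.83 on the log2 scale) and than in APP/PS1 mice (median of -0.74). Over all genes, 48.7% and 50.5% were lower. Of the 7, 0 passed (edgeR, lowest FDR = 0.185 and 0.455), beside 3.87% and 0.327% of all genes. The part of this tissue in the level of Tbr1 was not tested.

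**Figure D2:**
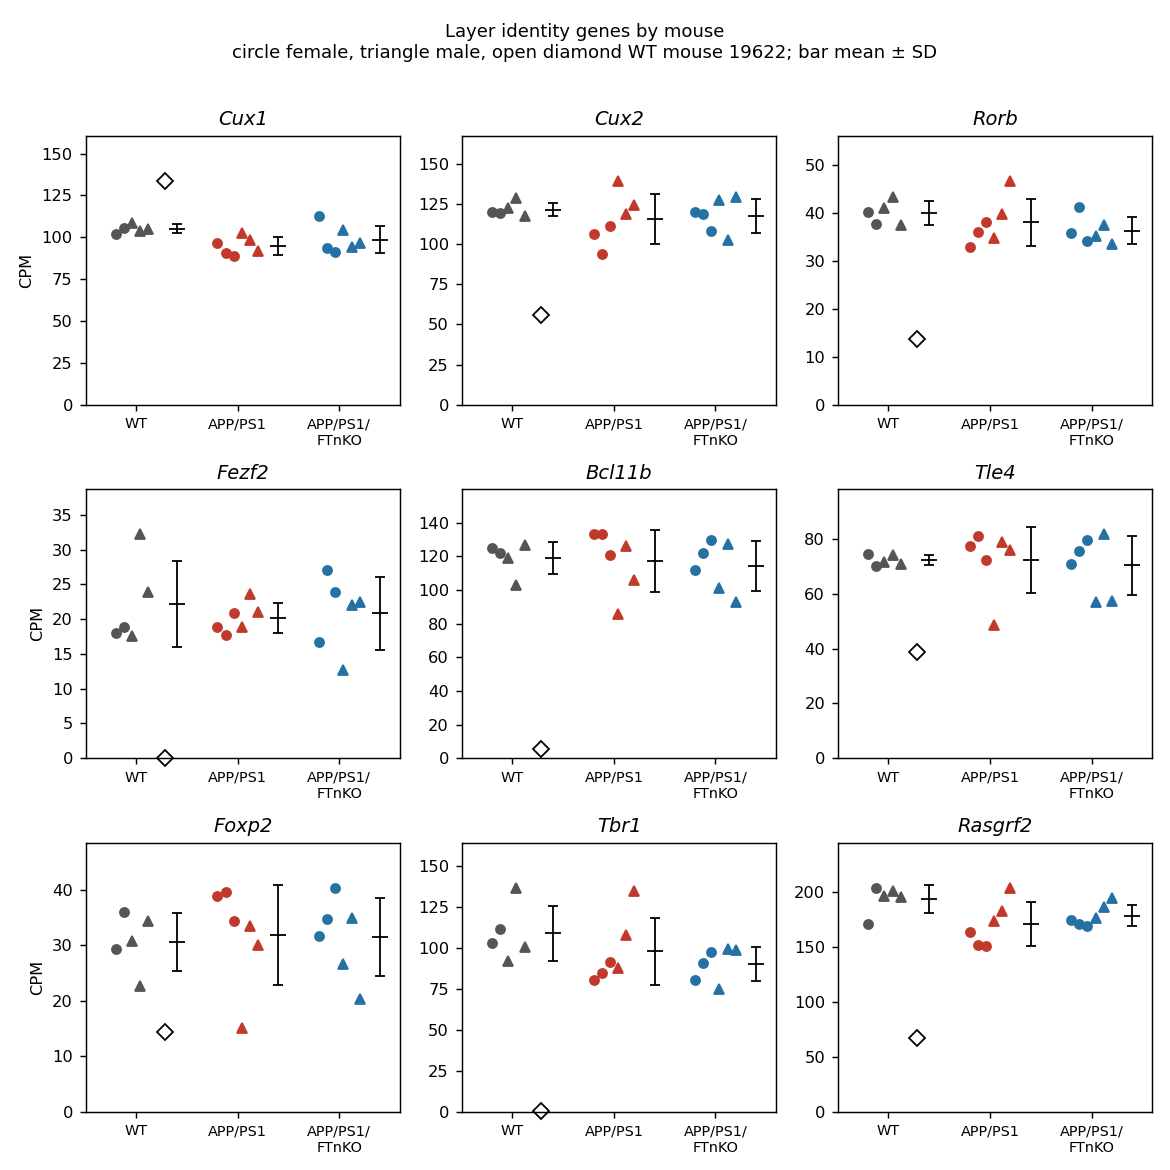
CPM of each layer identity gene in every mouse by genotype, with females as circles, males as triangles and the mean ± SD beside them (n = 5 WT, 6 APP/PS1 and 6 APP/PS1/FTnKO). The genotypes overlap for all 9 genes, whereas WT mouse 19622, the open diamond left out of the means, lies below all other mice for 8 genes and above them for Cux1. The share of all genes outside the range in that mouse was not counted.

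The comparison of APP/PS1/FTnKO with APP/PS1 mice asks what the loss of neuronal FT changes in mice that carry the transgenes. Only the APP/PS1/FTnKO mice carry Cre, so the presence of Cre and the loss of FT cannot be told apart in it. No layer gene passed the test: 0 of 9 were called by edgeR at FDR below 0.05, against 57 of all 17414 genes, or 0.327%. The number of layer genes at an unadjusted p under 0.05 was 0, beside 11.5% of all genes (1, Tbr1, with the RNA integrity number as a covariate), DESeq2 and limma-voom called 0 as well, and 5 of 9 were lower. No layer gene had groups that did not overlap, and 0.970% of all genes did. The median log2 fold change of the 9 genes was -0.017, beside -0.0016 over all genes tested. At this number of mice a changed gene could have been missed: the 95% intervals of the folds ran from 0.778 at the lowest bound, for Foxp2, to 1.33 at the highest, for Fezf2.

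For APP/PS1 against WT mice, which differ in the transgenes and, if the WT mice were C57BL/6J, also in background and floxed alleles, 0 of 9 layer genes passed, whereas 1.50% of all genes did. The 2 groups did not overlap for 0 layer genes and for 2.40% of all genes. Cux1 and Rasgrf2 were the 2 genes at an unadjusted p under 0.05, where 13.96% of all genes were, 8 of 9 genes were lower beside 50.6% of all genes, and the median was -0.066 beside -0.0023 over all genes. For APP/PS1/FTnKO against WT mice, 0 of 9 passed and 3.87% of all genes did, and 0 separated without overlap beside 5.60% of all genes. Tbr1 was the single gene at an unadjusted p under 0.05, where 22.1% of all genes were. All 9 layer genes were lower here, with a median of -0.084, beside 0.0053 over all genes, of which 48.7% were lower. DESeq2 and limma-voom called 0 of 9 in both comparisons with WT mice, and DESeq2 put the same numbers of genes, 2 and 1, under an unadjusted p of 0.05. Both comparisons use the same 5 WT mice, and APP/PS1 mice enter 2 of the 3 comparisons, so their directions are not independent. In bulk tissue, fewer cells of a layer and less RNA of a gene per cell cannot be told apart. With each of the 17 mice left out in turn, 12 of 153 log2 fold changes between APP/PS1 and WT changed sign. So did 8 of 153 between APP/PS1/FTnKO and WT. With mouse 19622 kept among the WT mice, 6 of the 9 differences between APP/PS1 and WT changed sign. So did 8 of the 9 between APP/PS1/FTnKO and WT, again with 0 genes passing. That mouse lay below all 17 others for 8 of the 9 genes, which lowers the WT level. Its inclusion therefore cannot show how firm the directions are in the 17 mice. The directions also changed with the RNA integrity number as a covariate in the same 17 mice: 5 of the 9 differences between APP/PS1 and WT and 3 of the 9 between APP/PS1/FTnKO and WT turned sign, with 0 genes passing.

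**Figure D3:**
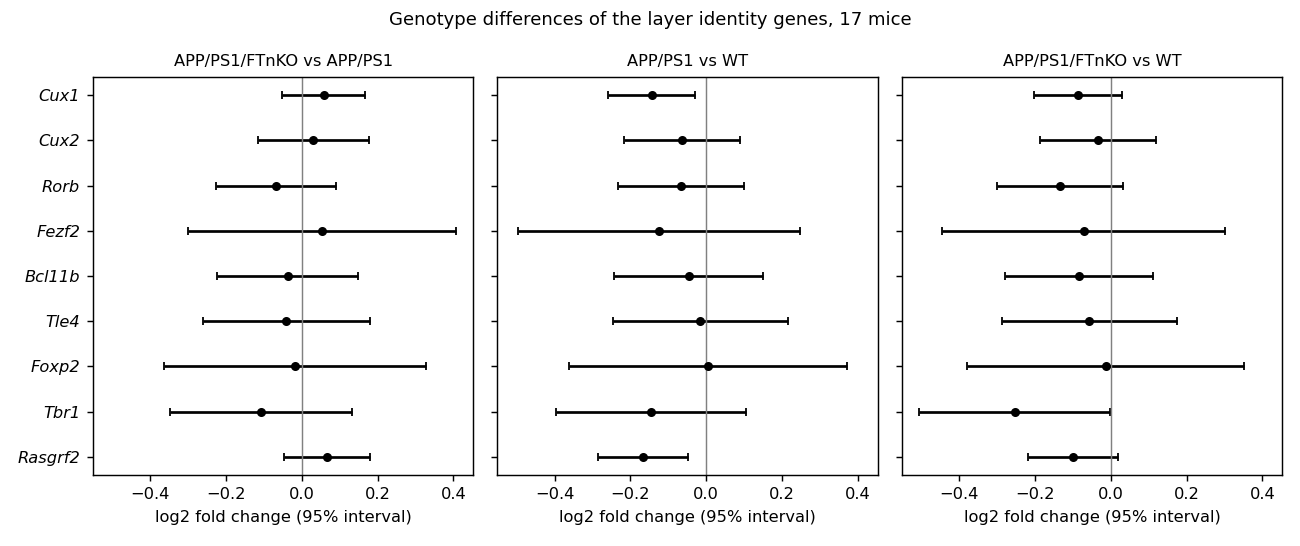
Log2 fold changes of the 9 genes in the 3 comparisons over 17 mice, with points for the edgeR estimate and bars for its 95% interval. No gene passed an FDR of 0.05, and the 9 estimates against WT in the right panel lie between -0.25 and -0.013.

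The sexes were balanced in the design and were compared across the genotypes, 9 males with 8 females. 0 of 9 layer genes passed (edgeR, lowest FDR = 0.571), and 12 of all genes did, or 0.0689%. An unadjusted p under 0.05 was found for 4 of the 9 and for 1166 of all 17414 genes. Rasgrf2 was at 151 to 203 CPM in females, with a median of 169, and at 173 to 203 CPM in males, with a median of 194. Its log2 difference, male minus female, was 0.16 ± 0.045 (unadjusted p = 0.00287, FDR = 0.571). Foxp2 was at 29.3 to 40.4 CPM in females, with a median of 35.4, and at 15.0 to 34.8 CPM in males, with a median of 30.1. Foxp2 differed by -0.37 ± 0.14 (edgeR, FDR = 0.620). Bcl11b was lower in males by a log2 difference of -0.19 ± 0.075 (FDR = 0.642), and Cux2 higher by 0.13 ± 0.059 (FDR = 0.694). The ranges of the sexes overlapped for each of these genes. The genotype differences were not shown to differ between the sexes: 0 of 9 genes passed the interaction test in any of the 3 comparisons, 0 had an unadjusted p under 0.05, and 0% of all genes passed (0 of 17414 in each, edgeR, with 578, 705 and 312 genes at an unadjusted p under 0.05).

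Bcl11b, Foxp2 and Tle4 are expressed in the striatum as well as in the cortex, and the samples differed in striatal RNA. A list of 14 striatal markers, among them the dopamine receptor gene Drd1, summed to 1199 to 2231 CPM in WT, between 1085 and 2902 CPM in APP/PS1 and between 1063 and 2309 CPM in APP/PS1/FTnKO mice, with no gene of the list at 0 in all of these 17. The sum was lowest in APP/PS1/FTnKO mouse 19720, APP/PS1 mouse 16975 and WT mouse 19718, which are also the 3 mice with the lowest Foxp2. It was 1838 to 2902 CPM in females and 1063 to 2231 CPM in males. Over the 17 mice, log2 Foxp2 rose with the log2 striatal sum with r = 0.87 and rho = 0.82 (permutation test, Benjamini-Hochberg adjusted p = 4.05e-04 and 0.00243, over 27 relations). For Bcl11b, r was 0.86 and rho was 0.73 (permutation test, adjusted p = 4.05e-04 and 0.00837). Cux2, of the upper layers, went the other way with r = -0.79 and rho = -0.78 (permutation test, adjusted p = 0.00169 and 0.00342). Without mice 16975 and 19720, the 2 farthest from the median sum, r was 0.78 for Foxp2, 0.73 for Bcl11b and -0.72 for Cux2. Within the 6 APP/PS1 and the 6 APP/PS1/FTnKO mice r was 0.89 and 0.84 for Foxp2, 0.95 and 0.79 for Bcl11b, and -0.96 and -0.58 for Cux2. The 5 WT mice are fewer than the 6 set as the least for a correlation, and none is given for them. With the genotype and sex means removed from both measures, an alternative chosen after the data had been seen, r was 0.82, 0.82 and -0.73 for these genes. Tle4 had r = 0.63 (permutation test, adjusted p = 0.0253) and rho = 0.49 (adjusted p = 0.197), and its r fell to 0.20 without the 2 farthest mice, so that this relation rested on them. The other 5 genes had adjusted p above 0.05. CPM are shares of a total, so each level is relative to the other genes in the sample. Whether the striatal share accounts for the sex differences of Foxp2 and Bcl11b was not tested.

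**Figure D4:**
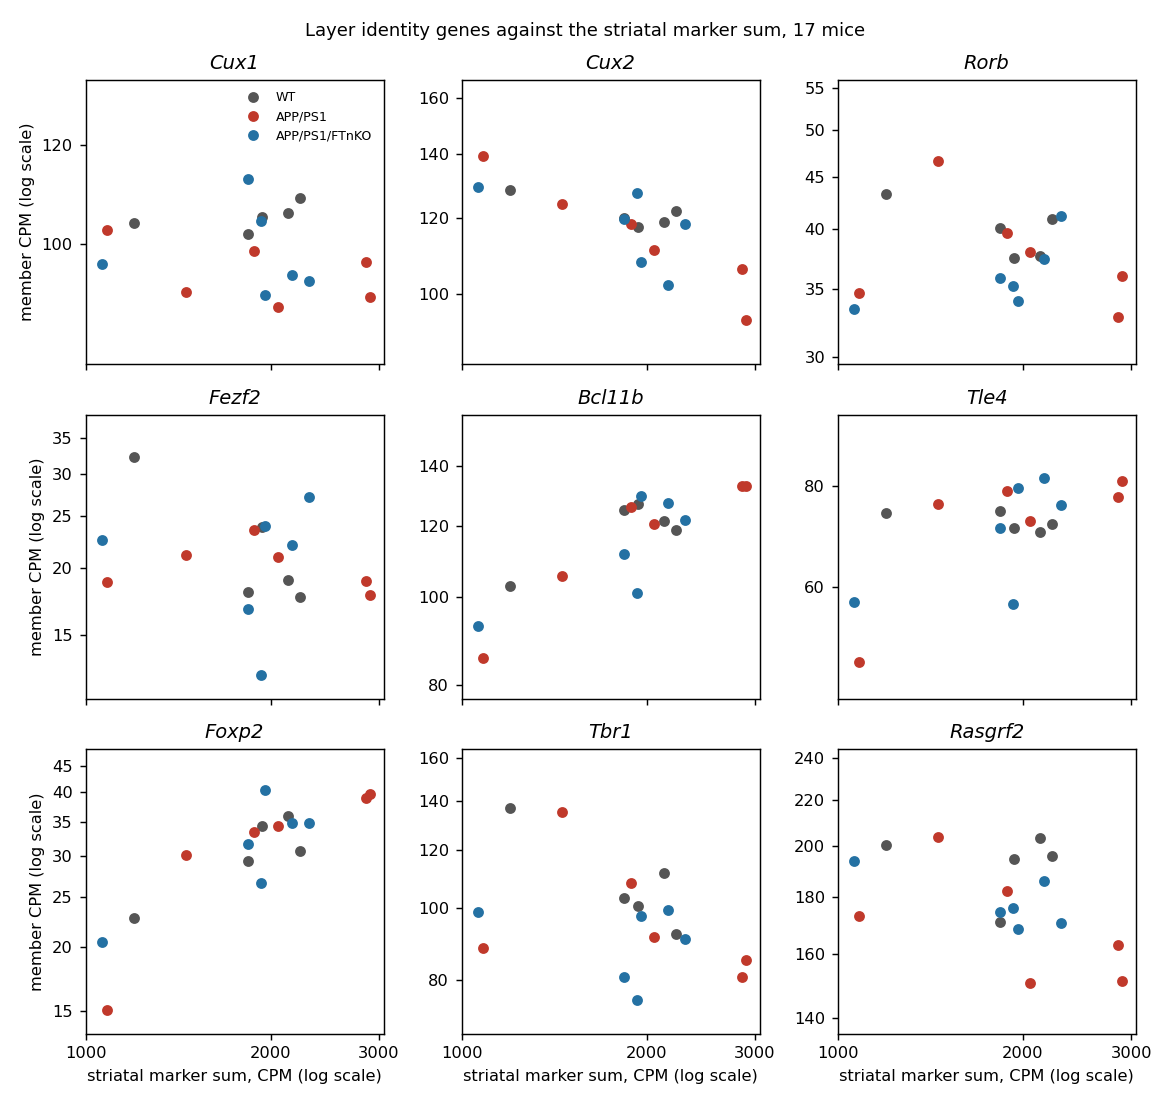
CPM of each layer identity gene against the summed CPM of 14 striatal markers in the 17 mice, coloured by genotype, on log axes. Foxp2 (r = 0.87) and Bcl11b (r = 0.86) rise with the striatal sum and Cux2 (r = -0.79) falls.

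Tbr1 and Fezf2 moved with other measures. Log2 Tbr1 rose with the summed excitatory neuron markers, Tbr1 itself left out, with r = 0.77 and rho = 0.68 over the 17 mice (permutation test, adjusted p = 0.00169 and 0.0172), and r was 0.62 without the 2 farthest mice. It also rose with the RNA integrity number (RIN), which was 8.5 to 8.8 in WT mice, reached down to 7.7 in APP/PS1 mice and down to 7.6 in APP/PS1/FTnKO mice, and was at most 8.7 in both. For Tbr1 and RIN, r was 0.68 and rho was 0.82 (permutation test, adjusted p = 0.0160 and 0.0027). For Fezf2 and RIN, r was 0.66 and rho was 0.67 (permutation test, adjusted p = 0.0160 and 0.0194). Without mice 16974 and 16975, which had the lowest RIN, r was 0.62 for Tbr1 and 0.50 for Fezf2. The RIN was thus unequal between the genotypes and moved with both genes. With RIN as a covariate the log2 fold change of Tbr1 was -0.20 in APP/PS1/FTnKO against APP/PS1 and 0.064 in APP/PS1 against WT mice, where it had been -0.11 and -0.15. The first of these had an unadjusted p = 0.0265 (edgeR, FDR = 0.232). In APP/PS1/FTnKO against WT mice it was -0.14 (edgeR, unadjusted p = 0.141, FDR = 0.453), where it had been -0.25. No layer gene passed with this covariate.

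WT mouse 19622 lay outside the range of the other 17 for all 9 genes, by much for some and narrowly for Foxp2, at 14.4 CPM beside a lowest value of 15.0. The share of all genes outside the range in this mouse was not counted, and the layer genes were not alone in it. All 14 striatal and all 10 microglial markers lay below the other 17 mice and all 16 cerebellar markers above, while 0 of 10 endothelial markers lay outside. These values are of a single mouse and carry no test, and the intervals cover counting error only. Fezf2 had 0 counts in this mouse, at least 148-fold lower than the mean of the other 5 WT mice, if 3 counts are taken as the floor. Tbr1 had 5 counts, 438-fold lower (95% interval 188 to 1350). Bcl11b had 105 counts, 22.8-fold lower (18.9 to 27.9). The other genes moved less. Rorb was 2.93-fold, Rasgrf2 2.88-fold, Cux2 2.19-fold, Foxp2 2.13-fold and Tle4 1.86-fold lower. Cux1 alone was above all 17 mice, with 134 CPM beside 89.0 to 113 CPM, or 1.27 times the WT mean. The striatal sum was 388 CPM in this mouse.

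**Figure D5:**
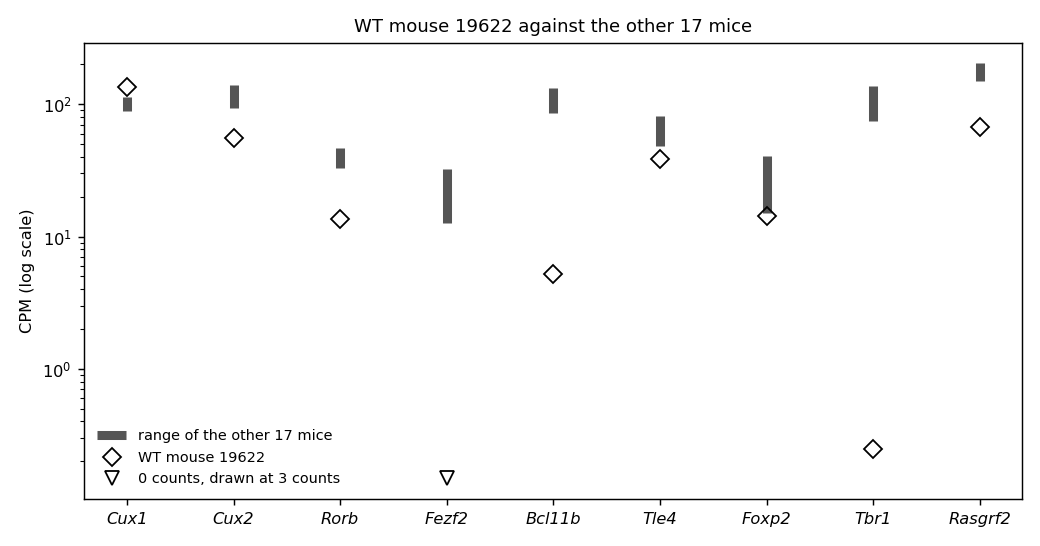
CPM of the layer identity genes in WT mouse 19622 (open symbols) beside the range of the other 17 mice (bars), on a log axis, with Fezf2, at 0 counts, drawn at the floor of 3 counts. Fezf2, Tbr1 and Bcl11b lie 22.8-fold or more below the WT mean, and Cux1 lies above all other mice.

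The promoters of these 3 genes, which were the lowest in mouse 19622 relative to the other WT mice, are shown from 250 bases before to 50 bases after the start in RefSeq, on the gene's strand and with CG dinucleotides in capitals (GRCm38.p6). They are Fezf2 at chr14:12345816-12346115 (minus), Tbr1 at chr2:61804203-61804502 (plus) and Bcl11b at chr12:108003365-108003664 (minus). The Fezf2 and Tbr1 windows lie inside the gene spans given above (chr14:12342094-12348189 and chr2:61802930-61814114). For these 2 genes the RefSeq start thus differs from that of the annotation used for the exon lengths.
Fezf2: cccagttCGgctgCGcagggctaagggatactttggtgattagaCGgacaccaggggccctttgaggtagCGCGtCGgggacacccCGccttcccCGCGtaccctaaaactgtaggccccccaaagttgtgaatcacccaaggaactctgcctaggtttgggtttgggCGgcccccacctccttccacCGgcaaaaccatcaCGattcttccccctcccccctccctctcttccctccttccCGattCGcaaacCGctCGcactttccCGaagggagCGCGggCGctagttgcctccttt
Tbr1: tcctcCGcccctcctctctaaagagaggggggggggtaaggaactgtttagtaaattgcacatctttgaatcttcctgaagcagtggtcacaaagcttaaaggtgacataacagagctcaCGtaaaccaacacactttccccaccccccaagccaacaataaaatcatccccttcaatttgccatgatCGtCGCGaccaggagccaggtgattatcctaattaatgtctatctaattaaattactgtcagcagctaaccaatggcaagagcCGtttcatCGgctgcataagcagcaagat
Bcl11b: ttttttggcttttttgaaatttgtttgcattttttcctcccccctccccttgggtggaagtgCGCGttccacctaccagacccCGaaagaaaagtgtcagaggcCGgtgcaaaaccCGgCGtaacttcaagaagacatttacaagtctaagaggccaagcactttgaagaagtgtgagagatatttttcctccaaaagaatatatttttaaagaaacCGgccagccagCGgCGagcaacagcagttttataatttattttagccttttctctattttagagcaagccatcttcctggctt
The Fezf2 window held 20 CG dinucleotides at 61.3% GC, the Tbr1 window 7 at 46% and the Bcl11b window 9 at 43%, beside medians of 7 CG dinucleotides and 52.7% GC over 32841 promoters of the same length. The letters TATAAA, searched on both strands, were found in the Bcl11b window and in neither of the others, and 13.6% of all promoters held them. The table had no entry for Foxp2.

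The layer genes were also set against each other within each mouse. The mean log2 CPM of the layer 5 and 6 genes minus that of the layer 2 to 4 genes had medians of -0.79 in WT, -0.63 in APP/PS1 and -0.78 in APP/PS1/FTnKO mice. The ranges were -0.93 to -0.71, -1.26 to -0.51 and -1.15 to -0.46, so that the genotypes overlapped and the 2 transgenic groups were wider. With Bcl11b, Foxp2 and Tle4 left out, the medians were -1.11, -1.04 and -0.98, and the ranges were -1.33 to -0.64, -1.24 to -0.92 and -1.63 to -0.84, so that the APP/PS1 group was then narrower than the WT group.

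Other genes of the same layers were taken from lists, of which the near-projecting list also holds Tle4 and the layer 5 and layer 6 lists share Crym. Of 12 further layer 2/3 genes 1 passed in APP/PS1/FTnKO against WT mice, where 3.87% of all genes were called: Igfbp4, a binding protein for insulin-like growth factors, fell from 70.0 ± 4.60 to 55.3 ± 7.68 CPM (SD, n = 5 and 6), a log2 fold change of -0.35 (edgeR, FDR = 0.0483). Among 14 further layer 5 genes, 13 of them tested, 1 passed in the same comparison: Etv1, an ETS transcription factor of layer 5 neurons, fell from 68.2 ± 4.16 to 57.5 ± 4.44 CPM, a log2 fold change of -0.25 (edgeR, FDR = 0.0499). Neither of these 2 genes passed in the other comparisons, and each lost its call when any of 12 of the 17 mice was left out in turn (values without each mouse are given with the alternatives). With the RNA integrity number as a covariate both lost it as well, Igfbp4 at -0.32 and Etv1 at -0.20 (edgeR, FDR of 0.101 for each). None of the 6 layer 4 genes, 6 near-projecting genes and 14 layer 6 and 6b genes passed in any comparison. In APP/PS1/FTnKO against APP/PS1 mice 13 of the 14 layer 6 and 6b genes were lower, with a median of -0.18, and 4 had an unadjusted p under 0.05 (lowest FDR = 0.127), beside 50.5% lower and 11.5% at that p over all genes. In APP/PS1 against WT mice 9 of these 14 genes were higher, with a median of 0.053. In APP/PS1/FTnKO against WT mice 11 of the 14 were lower, where 48.7% of all genes were. Lower there as well were 10 of the 12 layer 2/3 genes and 11 of the 13 tested layer 5 genes. Crym, a thyroid hormone binding protein and the gene of highest CPM among the layer 6 and 6b genes, was at 96.1 ± 20.7 CPM in APP/PS1 and 79.0 ± 16.0 CPM in APP/PS1/FTnKO mice (FDR = 0.407). Of 20 regulators of layer fate and of 12 tested paralogs of the 9 genes, 0 passed in any comparison (edgeR). In APP/PS1/FTnKO against WT mice 18 of the 20 regulators were lower, 7 of them with an unadjusted p under 0.05, and 10 of the 12 paralogs were lower, 5 with an unadjusted p under 0.05. Over all genes in this comparison 48.7% were lower and 22.1% had such a p. Rasgrf1, the paralog of Rasgrf2, was at 389.9 ± 23.3, 375 ± 32.8 and 376 ± 16.5 CPM in WT, APP/PS1 and APP/PS1/FTnKO mice.

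The markers of whole cell classes were compared in the same way. Of 12 markers of excitatory neurons, which include Tbr1, all were lower in APP/PS1/FTnKO than in WT mice, beside 48.7% of all genes, and 2 passed, beside 3.87% of all genes: Slc17a7 with a log2 fold change of -0.46 (FDR = 0.0396) and Nrn1, a neurite outgrowth factor, with -0.53 (edgeR, FDR = 0.0132). With each mouse left out in turn, Slc17a7 kept its call in 9 of 17 fits and Nrn1 in 16 of 17, the exception being WT mouse 19053 (log2 fold change of -0.50, FDR = 0.0546). Slc17a7 also lost its call with the RNA integrity number as a covariate (log2 fold change of -0.36, FDR = 0.0602), and Nrn1 kept it (edgeR, -0.44, FDR = 0.0156). The sum of the 12 markers was 4526 to 6424 CPM in APP/PS1/FTnKO mice, beside 6122 to 8215 CPM in WT and 5441 to 7891 CPM in APP/PS1 mice. Camk2a, a calcium-dependent kinase of these neurons, made up the largest part of the sum, with 3560 ± 499 CPM in WT, 3574 ± 654 CPM in APP/PS1 and 2675 ± 542 CPM in APP/PS1/FTnKO mice (SD), and it did not pass (edgeR, log2 fold change against WT of -0.39, FDR = 0.0983). Against APP/PS1 mice, Camk2a of APP/PS1/FTnKO mice was at -0.42 (unadjusted p = 0.00418) and Slc17a7 at -0.38 (edgeR, unadjusted p = 0.00334), and neither passed (FDR = 0.196 and 0.177). In APP/PS1 against WT mice, where 50.6% of all genes were lower, 11 of the 12 excitatory markers were lower with a median log2 fold change of -0.15. All 12 interneuron markers were lower there as well, with a median of -0.18, and 0 passed (edgeR, lowest FDR = 0.171, 3 at an unadjusted p under 0.05). Their sum was 1045 to 1403 CPM in WT, 1025 to 1276 CPM in APP/PS1 and 1021 to 1333 CPM in APP/PS1/FTnKO mice. Of 10 microglial markers, 6 were called higher in APP/PS1 and 4 in APP/PS1/FTnKO against WT mice (edgeR, FDR below 0.05), beside 1.50% and 3.87% of all genes called in either direction. Of 10 astrocyte markers 1 was called in both, Gfap, a filament protein of reactive astrocytes, at log2 fold changes of 2.78 and 2.53 (edgeR, FDR = 3.23e-04 and 9.80e-04). Of 9 hippocampal markers tested, Fibcd1 and Itpka were called lower in APP/PS1/FTnKO against WT mice, where 3.87% of all genes were called in either direction. Their log2 fold changes were -0.40 and -0.21 (edgeR, FDR = 0.0447 and 0.0445). Both FDR were close to the threshold, and these 2 calls were not followed through the alternatives. The part of these classes in the levels of the layer genes was not tested.

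The genes most like each layer gene were found by the Pearson correlation of log2 CPM over the 17 mice once the genotype and sex means had been removed. These are descriptions without a test, and each gene named was picked for its high r out of all genes tested. The highest r that unrelated genes would reach in such a search was not computed. The values of r alone therefore do not show that a pair is related. Both values of a pair come from the same library of each mouse, and the mice differed in RIN and in striatal RNA. Foxp2 was closest to Dchs2, a cadherin (r = 0.96), Cntnap2 (r = 0.96) and Gnal, the G protein subunit of striatal neurons (r = 0.95). Bcl11b was closest to the serotonin receptor gene Htr1b (r = 0.94) and next to Foxp2 itself (r = 0.93). Tbr1 was closest to Septin8 (r = 0.97) and Rimbp2 (r = 0.96), and Tle4 to Plcl2 (r = 0.95) and Vstm2a (r = 0.95). Fezf2 came nearest to Serinc2 (r = 0.88). The closest genes of Cux2, Rorb, Cux1 and Rasgrf2 had lower r, at 0.86, 0.85, 0.84 and 0.83, and they were Gm45706, Fads3, Rps15a and Pdzrn3. Gm45706 had a mean of only 0.487 CPM over the 17 mice.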

How the data were processed

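Libraries of poly(A) RNA from the frontal cortex of 18 mice had been made with a kit that keeps the strand. Trimmomatic 0.33, HISAT2 2.1.0 (on GRCm38) and featureCounts were used by the authors, who deposited raw counts per gene with 1 column per mouse. How strand and multi-mapping were handled in counting is not stated, so reads of antisense genes that overlap Cux1 and Cux2 may not be told apart. Groups came from the labels, and 0 columns were unused. The 9 genes and all lists were chosen with earlier results of these data known.

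Genotypes were compared in 17 mice, without WT mouse 19622, by the quasi-likelihood F test of edgeR 4.0.16 in R 4.3.3. TMM factors were used, genes were kept by filterByExpr at a minimum count of 10, sex and genotype were terms, and the 3 genotypes shared the spread. Calls were made at a Benjamini-Hochberg FDR below 0.05 over 17414 genes, and p-values are two-sided. Exon lengths came from GENCODE M21 and promoters from RefSeq. Correlations used 100000 permutations (SciPy). The genes named were all 9, the called and the most abundant genes of each further list, and per layer gene those most like it, of which only some are described. Alternatives were limma-voom (limma 3.58.1), DESeq2 1.42.0, and other normalization, filters, terms and mouse sets. edgeR was tested on simulated data for APP/PS1/FTnKO against APP/PS1 with 200 genes changed. It kept 17212 genes and recovered 80.4% of log2 changes of 1 and 56.8% of those of 0.5, with 2.78% of calls false. DESeq2 recovered 81.2% and 62.5% with 13.1% false.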

Additional observations from a re-analysis of the deposited data

Results flagged for a closer look

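Within the groups of the 17 mice, 30 sets of values were tested for a sample far from the others, and chance alone is expected to mark about 1 in 20. The test marked 2 of them: Rasgrf2 in WT mice, where mouse 18944 lay at 171 CPM below the next value of 195, and Tle4 in APP/PS1 mice, where mouse 16975 lay at 48.5 CPM below the next value of 72.5. Mouse 16975 also had the second-lowest striatal marker sum of the 17, 1085 CPM, and a RIN of 7.7.

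With mouse 19622 counted among the WT mice, it was marked for 7 of the 9 genes. Cux1 lay at 134 CPM on the high side, and Cux2 at 55.6, Rorb at 13.6, Bcl11b at 5.22, Tle4 at 38.9, Tbr1 at 0.249 and Rasgrf2 at 67.1 CPM on the low side. The mouse had been set apart before, so these marks describe it and are no separate evidence that it differs. This mouse is in no test on the 17 mice. Its Cux1, at 134 CPM, lay above all of them, and so did its summed CPM for 8 of the 18 gene lists: the cerebellum at 4857, oligodendrocytes at 11124, the further layer 2/3 genes at 1602, the paralogs of the 9 genes at 1155, the further layer 5 genes at 722, the hippocampus at 591, the olfactory bulb at 355 and the thalamus at 255 CPM. Few genes carried some of these sums. Of the 12 further layer 2/3 genes 9 lay below all 17 mice, and Enpp2 at 833 and Calb1, also a cerebellar marker of the lists, at 504 CPM lay above them. Of the 14 further layer 5 genes 7 lay below and 4 above, Etv1 at 296 CPM the highest. Of the olfactory bulb genes Calb2 was at 320 CPM, and Cdhr1, at 1.64 CPM, lay below all 17 mice.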

How the results depend on the processing

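The numbers of layer genes called, 0 in each of the 3 genotype comparisons, stayed at 0 under DESeq2, limma-voom, RLE normalization, no filter, the stricter filter, RIN as a covariate, no sex term, only the genotypes compared, a minimum RIN of 8 and all 18 mice. They stayed at 0 with each mouse left out in turn, except that APP/PS1 against WT ranged from 0 to 1, with Rasgrf2 passing without APP/PS1 mouse 19744. The counts for the sexes and for the interaction were 0 in 18 mice as well. The log2 fold changes were small enough for their signs to move, with FDR above 0.05 on both sides. With mouse 19622 kept (all 18 mice), the log2 fold changes that changed sign were, in APP/PS1 against WT mice 0.070 for Cux2, 0.11 for Rorb, 0.17 for Fezf2, 0.23 for Bcl11b, 0.12 for Tle4 and 0.13 for Tbr1, and in APP/PS1/FTnKO against WT mice 0.10 for Cux2, 0.044 for Rorb, 0.24 for Fezf2, 0.19 for Bcl11b, 0.076 for Tle4, 0.15 for Foxp2, 0.031 for Tbr1 and 0.067 for Rasgrf2. With limma-voom, the log2 fold changes that changed sign were, in APP/PS1 against WT mice -0.0041 for Foxp2. With RIN as a covariate, the log2 fold changes that changed sign were, in APP/PS1/FTnKO against APP/PS1 mice -0.11 for Fezf2, and in APP/PS1 against WT mice 0.012 for Rorb, 0.18 for Fezf2, 0.039 for Bcl11b, 0.14 for Tle4 and 0.064 for Tbr1, and in APP/PS1/FTnKO against WT mice 0.073 for Fezf2, 0.031 for Tle4 and 0.073 for Foxp2. Without the sex term, the log2 fold changes that changed sign were, in APP/PS1 against WT mice 0.0023 for Tle4, and in APP/PS1/FTnKO against WT mice 0.038 for Foxp2. At a minimum RIN of 8, the log2 fold changes that changed sign were, in APP/PS1 against WT mice 0.014 for Bcl11b and 0.073 for Tle4, and in APP/PS1/FTnKO against WT mice 0.069 for Fezf2, 0.0098 for Tle4 and 0.024 for Foxp2. In APP/PS1/FTnKO against APP/PS1 mice the log2 fold changes with each mouse left out ran from -0.15 to 0.058 for Foxp2, from -0.015 to 0.084 for Cux2, from -0.10 to 0.013 for Bcl11b, from -0.13 to 0.0058 for Tle4 and from -0.052 to 0.18 for Fezf2. In APP/PS1 against WT mice the log2 fold changes with each mouse left out ran from -0.074 to 0.15 for Foxp2, from -0.20 to 0.043 for Fezf2, from -0.067 to 0.079 for Tle4 and from -0.10 to 0.024 for Bcl11b. In APP/PS1/FTnKO against WT mice the log2 fold changes with each mouse left out ran from -0.11 to 0.078 for Foxp2, from -0.17 to 0.092 for Fezf2 and from -0.058 to 0.023 for Cux2. The cause of these changes of sign was not tested. The deep minus upper balance without Bcl11b, Foxp2 and Tle4 moved to -1.11 in WT and -1.04 in APP/PS1 mice. With 1 mouse left out, the medians of the balance over all 9 genes ran from -0.79 to -0.78 in WT, from -0.65 to -0.62 in APP/PS1 and between -0.91 and -0.64 in APP/PS1/FTnKO mice. Igfbp4, at -0.35, ran from -0.39 to -0.28 with 1 mouse left out and kept its call in 5 of 17 fits, Etv1, at -0.25, ran from -0.28 to -0.21 and kept its call in 5, and both lost it in all 18 mice (Igfbp4 at -0.11 and Etv1 at -0.83), with RIN as a covariate and at a minimum RIN of 8, and Etv1 also with limma-voom (FDR = 0.0504) and RLE (edgeR, FDR = 0.0525). Slc17a7 lost its call in these 3 settings and without the sex term (edgeR, FDR = 0.557, 0.0602, 0.0849 and 0.0508), and Nrn1 in all 18 mice (edgeR, FDR = 0.0546). Over all genes, the 57, 261 and 674 calls of the 3 comparisons were 261, 84 and 388 with RIN as a covariate, 14, 120 and 368 at a minimum RIN of 8, 2, 207 and 261 in all 18 mice, 244, 458 and 1302 with DESeq2, 104, 452 and 971 without a filter and 5, 190 and 859 with only the genotypes compared. DESeq2 on all 18 mice was also run after the data had been seen and is not tabulated: it called 0 of 9 layer genes in each of the 3 genotype comparisons, and its log2 fold changes had the sign changes against WT given above for all 18 mice. No paired analysis was possible because the replicate names are mouse numbers that no 2 groups share. The layer genes had 211 reads or more in each of the 17 mice, while their coefficients of variation over the mice reached 22.1%.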
